A study of Mus musculus with 4 samples.

Results

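The report concerns 10 genes of the granulocyte, monocyte and mast cell lineages, measured in a red cell precursor line with and without Wdr26. They are Cebpa, Prtn3, Mpo, Elane, Alox5ap, Alox5, S100a6, Tyrobp, Fcer1g and Mcpt1, selected by symbol from the 17393 genes of the deposited table. The selection was made with the levels of these genes in knockout and wild-type cells already known. Their values in that comparison are thus a description and carry no test of their own. The other gene lists used below were also chosen with earlier results of these data known, and the same holds for them. RNA depleted of ribosomal RNA came from DS19 mouse erythroleukemia (MEL) cells, a transformed erythroid precursor line. There were 2 libraries of Wdr26-/- cells and 2 of wild-type cells, numbered 1 and 2 within each genotype by the sample titles. The growth description shared by both genotypes names 1.5% dimethyl sulfoxide, an inducer of erythroid-like differentiation, without saying whether the sequenced cells had received it. The labels do not state whether the knockout cells are a single clone or whether the libraries of 1 genotype are separate cultures. A p-value therefore reflects only how these samples vary, and that variation may be technical.

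Granulocytes, monocytes and mast cells arise from progenitors that also give rise to red cells. C/EBP alpha, the product of Cebpa, is a transcription factor that directs progenitors to the granulocyte and monocyte fates and switches on genes of the primary granules. Those granules hold myeloperoxidase (Mpo), neutrophil elastase (Elane) and proteinase 3 (Prtn3). Leukotrienes, lipid mediators of inflammation, are made by 5-lipoxygenase (Alox5) with its helper FLAP (Alox5ap). Tyrobp (DAP12) and Fcer1g (the Fc receptor gamma chain) are small membrane adaptors that pass signals from activating receptors through a tyrosine motif called an ITAM. Mcpt1 encodes a chymase-type protease of mucosal mast cells, and S100a6 a small calcium-binding protein found in many cell types.

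Levels are given in FPKM, fragments scaled to transcript length and sequencing depth. The step size of the lowest values corresponded to roughly 19900000 to 21100000 fragments per library, and to between 18800000 and 26800000 under other assumptions on effective transcript length. Wdr26, the targeted gene, had 9 and 7.84 FPKM in the knockout libraries, against 55.4 and 52.4 FPKM in the wild-type ones, so the labels fit the targeted gene. The erythroid identity of the line was visible in both genotypes: all 10 erythroid markers examined were above 1 FPKM in every library, and their summed level was 154000 and 179000 FPKM in knockout against 169000 and 208000 FPKM in wild type. The 7 B and T cell markers and the 3 fibroblast markers that could be analysed stayed below 1 FPKM in every library. In bulk RNA, a change in the number of cells that express a gene and a change in RNA per cell cannot be told apart.

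The 10 genes covered a wide range of levels. From highest to lowest mean they ran Alox5, Alox5ap, S100a6, Fcer1g, Cebpa, Prtn3, Mcpt1, Tyrobp, Mpo and Elane. Some neighbours in that order were not separated beyond the spread of their libraries: Fcer1g overlapped Cebpa, and Cebpa overlapped Prtn3, in the knockout libraries. In wild type, Mcpt1 stood above Prtn3. Tyrobp, Mpo and Elane were below 1 FPKM in all 4 libraries and were not tested. Mcpt1 was below 1 FPKM in both knockout libraries and above it in both wild-type libraries. It therefore entered the test only through the genotype in which it was high. The gene just outside the limit of 1 FPKM was Tyrobp, whose highest library stood at 0.65 FPKM.

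**Figure D1:**
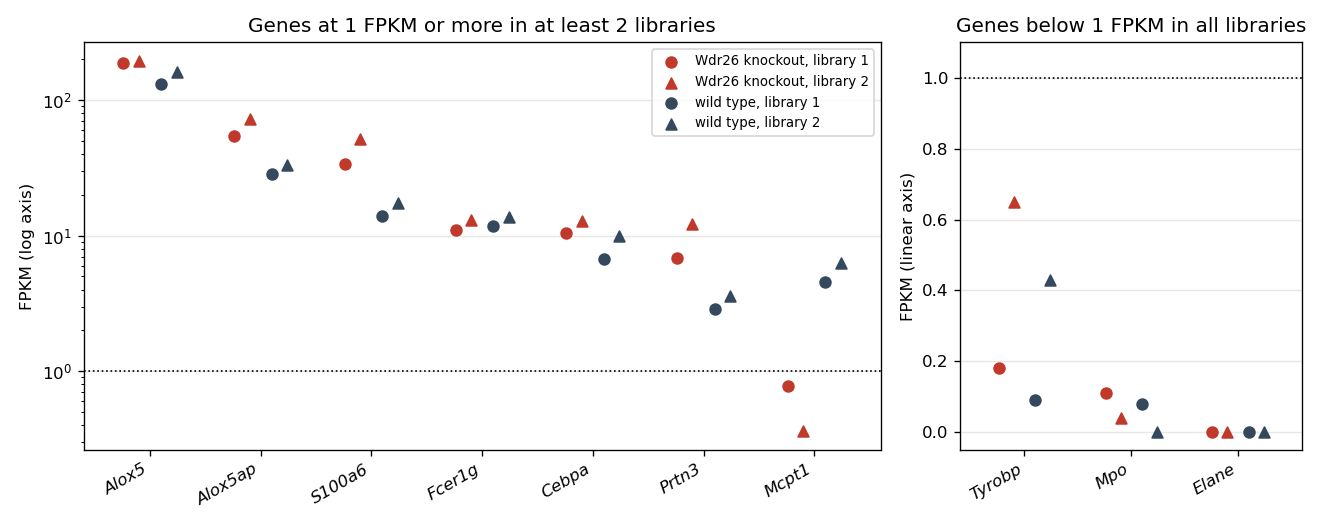
FPKM of each of the 10 genes in every library, with knockout libraries in red and wild-type libraries in dark blue, circles for library 1 and triangles for library 2. The left panel has a log axis, the right panel a linear one, and the dotted line marks 1 FPKM. Prtn3, Alox5ap and S100a6 sit higher in both knockout libraries, Mcpt1 sits lower in both, and Tyrobp, Mpo and Elane stay below 1 FPKM.

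Of the 7 genes tested, 5 had each knockout library above each wild-type library (Cebpa, Prtn3, Alox5ap, Alox5 and S100a6), Mcpt1 had each below, and Fcer1g overlapped between genotypes. Among all 10670 genes tested, 29.9% lay apart as higher, 10.8% as lower and 40.7% in either direction. Those shares depend on scaling: with each library centred on its median, 19.9% of all genes were higher and 20.1% lower, and 4 of the 7 genes were higher, since Cebpa then overlapped. None of the 7 passed limma across all genes at a Benjamini-Hochberg adjusted p of 0.05, a threshold that 10 genes, 0.0937% of those tested, passed (0.0469% higher and 0.0469% lower). A log2 difference of at least 1 was reached by Prtn3 and S100a6 among the higher genes and by Mcpt1 among the lower, against 0.469% and 0.384% of all genes, and Alox5ap fell just short at 0.99. At an unadjusted p under 0.05 there were 5 of the 7 genes, against 1218 or 11.4% of all genes, and because the genes were selected on this contrast nothing is read from that share. The absence of calls among the 7 changed with the libraries used. The number passing over all genes changed in the same fits, as given with the other processing settings at the end. For the genes with the largest differences, leaving out knockout library 1 gave log2 differences of 1.2 (Alox5ap), 1.64 (Prtn3), 1.67 (S100a6) and −2.23 (Mcpt1). Leaving out knockout library 2 gave 0.79, 0.89, 1.06 and −1.84 in the same order. Leaving out either wild-type library kept Alox5ap, Prtn3 and S100a6 at 0.89 or more, and Mcpt1 no longer reached the filter. In each such fit the spread comes from the genotype that keeps 2 libraries, and the lone library is assumed to vary like them.

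The transcription factor gene Cebpa (gene ID 12606, chromosome 7, 35119293 to 35121928, mm10, 1 exon) was expressed at a moderate level. Its level was 10.5 and 12.9 FPKM in knockout libraries 1 and 2, against 6.67 and 9.97 FPKM in wild-type libraries 1 and 2. Both knockout values were higher, but the lower of them exceeded the higher wild-type value by a factor of only 1.05. The means were 11.7 ± 1.69 FPKM in knockout and 8.32 ± 2.33 FPKM in wild type (SD, n = 2 each), a ratio of 1.41, and the log2 difference of FPKM + 1 was 0.46 (SE 0.21). Cebpa overlaps the annotated antisense gene Gm45091, and the labels do not say whether strand was kept, so its value may include antisense reads.

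The other myeloid transcription factors were measured in 14 of the 16 listed besides Cebpa, and 9 were tested. None passed the test in either direction, 4 stood higher and 1 lower in each knockout library than in either wild-type library, and their median log2 difference was 0.12, against 0.067 over all genes tested. Over all genes 29.9% were higher and 10.8% lower. With median-centred values the counts were 3 and 1 of 9, against 19.9% and 20.1% of all genes. Spi1, which encodes the myeloid and B cell factor PU.1, was the most abundant at 57.4 and 39.5 FPKM in knockout and 43.3 and 53.4 FPKM in wild type, and its groups overlapped. Runx1, a factor of blood stem cells and several blood lineages, averaged 17.6 ± 0.799 FPKM in knockout and 16.1 ± 2.22 FPKM in wild type (SD, n = 2 each). Cebpb, a relative of Cebpa used in monocytes and in emergency granulocyte production, averaged 17.6 ± 1.88 FPKM in knockout and 15.5 ± 1.07 FPKM in wild type. Cebpe and Gfi1, which act in later granulocyte development, were below 0.2 FPKM in every library.

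Among the primary granule genes, Prtn3 was the only one of Prtn3, Mpo and Elane above 1 FPKM. Prtn3 (gene ID 19152, chromosome 10, 79879667 to 79883174, 5 exons) reached 6.84 and 12.2 FPKM in the knockout libraries, against 2.88 and 3.59 FPKM in the wild-type ones. Both knockout values lay well above both wild-type values, and they differed from each other more than the wild-type values did. The ratio of means was 2.94, single pairs of libraries gave ratios between 1.91 and 4.23, and the log2 difference was 1.27 (SE 0.26). The values correspond to about 139 and 239 fragments in the knockout libraries and to about 58 and 75 in the wild-type libraries.

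Elane (gene ID 50701, chromosome 10, 79886312 to 79888216, 5 exons) lies about 3072 bases downstream of Prtn3 on the same strand and was listed at 0 in all 4 libraries. Cfd, the next gene on that strand, which encodes the complement protease factor D, was also listed at 0 in every library. Mpo (gene ID 17523, chromosome 11, 87793784 to 87804412, 14 exons) was at 0.11 and 0.04 FPKM in knockout, and at 0.08 FPKM and listed at 0 in wild type. These values are worth about 6, 2, 4 and 0 fragments, so no difference was detectable at this depth. The neighbouring peroxidase gene Lpo, singled out after its values were seen, was at 0.92 and 1.31 FPKM in knockout and listed at 0 in both wild-type libraries.

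The sequences before the starts of Prtn3, Elane and Mpo are shown because these granule genes had such different levels. They come from the RefSeq promoter table of GRCm38.p6 (mm10), which held 8 of the 10 genes, and are printed 5′ to 3′ on the gene's strand. Of the 250 bases before the RefSeq start, each is printed up to the first base that GENCODE M21 annotates as an exon of the gene. GENCODE M21 starts Prtn3 further upstream, at 79874476, so the Prtn3 stretch lies inside that annotated gene. Capitals mark GAGGAA, the core recognised by PU.1 and other ETS factors, searched on both strands. The stretches are chr10:79879417-79879613 for Prtn3, chr10:79886062-79886246 for Elane and chr11:87793534-87793580 for Mpo, all on the plus strand.
Prtn3: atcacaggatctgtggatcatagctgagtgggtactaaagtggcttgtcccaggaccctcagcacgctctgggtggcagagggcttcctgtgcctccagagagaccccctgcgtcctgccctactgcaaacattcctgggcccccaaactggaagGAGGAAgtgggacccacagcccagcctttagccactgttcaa
Elane: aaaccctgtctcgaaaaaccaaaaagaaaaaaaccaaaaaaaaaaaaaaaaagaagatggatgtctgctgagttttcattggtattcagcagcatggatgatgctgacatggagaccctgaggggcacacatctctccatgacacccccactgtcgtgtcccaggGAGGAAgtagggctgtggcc
Mpo: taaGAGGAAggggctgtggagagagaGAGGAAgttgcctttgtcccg

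GAGGAA occurred in the 250 bases before the start of 4 of the 8 genes with a promoter, namely Prtn3, Elane, Mpo and Alox5, with 2 matches in Mpo and 1 in each of the others. Of all 32851 promoters in the table, 23.3% held it. In Prtn3 the match lay at −95 to −90 and in Elane at −85 to −80, counted from the start. The letters TTGCNNAA, used for C/EBP factors, were in none of the 8 windows and in 9.56% of all promoters. AGATAA, a core bound by GATA factors, was likewise in none of the 8 and in 9.99% of all. Other forms of the GATA core were not searched, among them TGATAA, whose letters stand in the Mcpt1 sequence printed below. TGTGGT, a RUNX core, was found in S100a6 with 3 matches and in Mcpt1 with 1, and in 14% of all promoters. Matches are letters in a window and were not tested for binding, and the motif letters do not overlap one another in any of the 8 windows. Prtn3 and Elane thus share a GAGGAA match at like distances while only Prtn3 was measured above 0.

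The rest of the granulocyte list was at low levels. Of its 21 genes besides Prtn3, Mpo and Elane, 15 could be analysed, 13 of these were below 1 FPKM in every library and 4 were listed at 0 throughout. The gene of the secondary granule protein lactoferrin, Ltf, did not exceed 0.30 FPKM, and the lysozyme gene Lyz2 did not exceed 0.10 FPKM. The 2 genes tested were Cst7, a cysteine protease inhibitor gene, at 7.48 and 8.85 FPKM in knockout and 3.99 and 8.10 FPKM in wild type, and Serpinb1a, which encodes an inhibitor of neutrophil proteases, at 5.32 and 5.39 FPKM in knockout and 3.66 and 4.94 FPKM in wild type. Neither passed. The summed level of the 15 genes was 13.3 and 14.6 FPKM in knockout and 8.10 and 13.7 FPKM in wild type.

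The leukotriene genes were the most abundant of the 10. Alox5 (gene ID 11689, chromosome 6, 116410071 to 116461178, minus strand, 14 exons) measured 187 and 194 FPKM in the knockout libraries, against 131 and 160.3 FPKM in the wild-type ones. The groups did not overlap, and the wild-type values differed from each other more than the knockout values did. The means were 191 ± 5.13 FPKM in knockout and 146 ± 20.7 FPKM in wild type (SD, n = 2 each), a ratio of 1.31 and a log2 difference of 0.39 (SE 0.15).

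Alox5ap (gene ID 11690, chromosome 5, 149265004 to 149288153, 5 exons) measured 54.0 and 72.3 FPKM in the knockout libraries, against 28.7 and 33.3 FPKM in the wild-type ones. Both knockout values were higher by a wide margin, with ratios of single library pairs between 1.62 and 2.52. The means were 63.2 ± 12.9 and 31.0 ± 3.22 FPKM in knockout and wild type (SD, n = 2 each), a ratio of 2.04 and a log2 difference of 0.99 (SE 0.18). The value of Alox5ap includes a transcript assembled from the reads, and the gene overlaps the antisense gene Gm19719 and an rRNA annotation on the opposite strand. The ratio of knockout to wild type was thus larger for the helper protein's gene than for the enzyme's own gene, while in each library the level of Alox5 exceeded that of Alox5ap on the length-scaled FPKM measure.

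**Figure D2:**
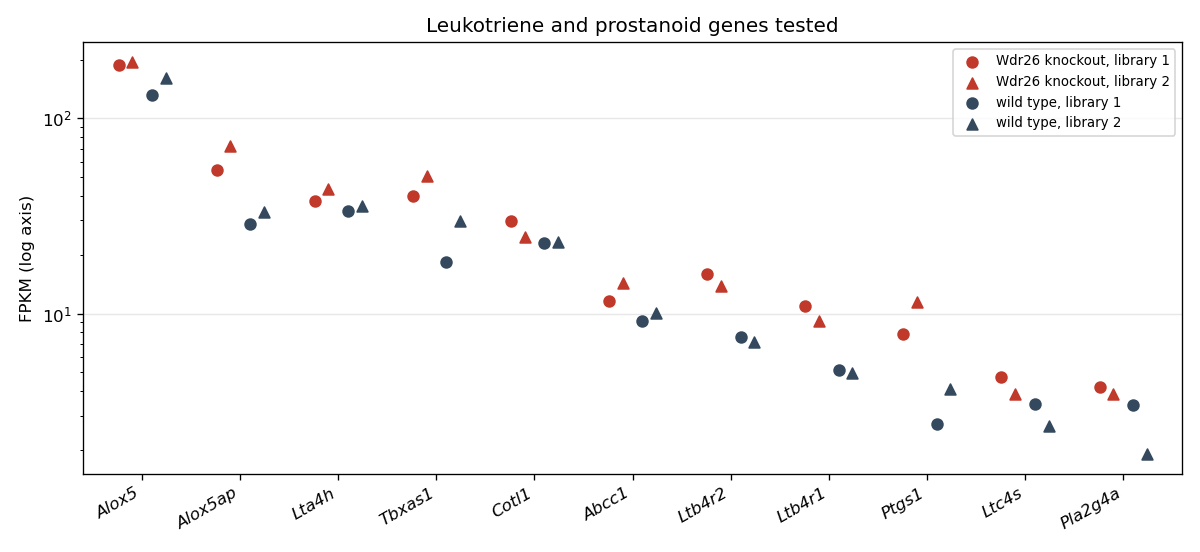
FPKM on a log axis of the leukotriene and prostanoid genes that were tested, in every library, with knockout libraries in red and wild-type libraries in dark blue. For Alox5, Alox5ap and each of the 9 other genes, both knockout libraries sit above both wild-type libraries.

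Besides Alox5 and Alox5ap, 17 of 19 listed genes of the leukotriene and prostanoid pathway could be analysed. Of these, 8 were below 1 FPKM in every library and 9 were tested. All 9 tested genes were higher in both knockout libraries, where 29.9% of all genes tested were. With median-centred values this held for 7 of the 9 and for 19.9% of all genes. Their median log2 difference was 0.50, against 0.067 over all genes tested. Of the 9, 0 passed limma over all genes (5 at an unadjusted p under 0.05, where 11.4% of all genes were). Nothing is read from these shares, since the list was chosen with earlier results of these data known. The summed level of the 17 genes was 163 and 176 FPKM in knockout and 106 and 120 FPKM in wild type.

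Among the genes next to 5-lipoxygenase in the pathway, the groups of Lta4h, Cotl1 and Ltc4s lay apart by smaller log2 differences of 0.23, 0.22 and 0.39. Lta4h, which makes leukotriene B4, averaged 40.7 ± 4.11 FPKM in knockout and 34.5 ± 1.44 FPKM in wild type (SD, n = 2 each). Cotl1, whose protein binds 5-lipoxygenase and actin, stood at 29.8 and 24.7 FPKM in knockout and 23.0 and 23.3 FPKM in wild type. Ltc4s, the leukotriene C4 synthase gene, was lower in level, at 4.73 and 3.85 FPKM in knockout and 3.43 and 2.66 FPKM in wild type.

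Larger differences were measured for the leukotriene B4 receptor genes Ltb4r1 and Ltb4r2 and for the prostanoid genes Ptgs1 and Tbxas1, all but Tbxas1 singled out after their values were seen. The prostanoid synthase genes Ptges and Hpgds did not exceed 0.03 and 0.04 FPKM in any library. Ltb4r1 stood at 10.9 and 9.16 FPKM in knockout and 5.15 and 4.98 FPKM in wild type, a log2 difference of 0.86 (limma adjusted p = 0.152). Ltb4r2, which lies 823 bases from Ltb4r1 on the same strand, stood at 15.9 and 13.8 FPKM in knockout and 7.56 and 7.19 FPKM in wild type, a log2 difference of 0.92 (limma adjusted p = 0.117). Ptgs1, the gene of cyclooxygenase 1, stood at 7.81 and 11.4 FPKM in knockout and 2.72 and 4.10 FPKM in wild type, a log2 difference of 1.27 (limma adjusted p = 0.164). Tbxas1, the thromboxane synthase gene, stood at 39.8 and 50.8 FPKM in knockout and 18.3 and 29.7 FPKM in wild type, a log2 difference of 0.92 (limma adjusted p = 0.27). Tbxas1 overlaps Hipk2, which lies on the other strand, and part of its value could belong to Hipk2. Thromboxane synthase and cyclooxygenase 1 are also known from platelets, and the 10 megakaryocyte markers summed to 282 and 291 FPKM in knockout and 254 and 308 FPKM in wild type, with 3 of the 5 tested higher and 1 lower in both knockout libraries (1 and 1 with median-centred values; 29.9% and 10.8% of all genes without centring). Itga2b, which encodes the platelet integrin alpha IIb, held most of that sum, at 240.0 and 235 FPKM in knockout and 215 and 232 FPKM in wild type. Pf4, the platelet factor 4 gene, stood at 21.4 and 37.9 FPKM in knockout and 22.8 and 58.2 FPKM in wild type, and Gp9, a platelet receptor gene, at 10.5 FPKM in both knockout libraries and 8.05 and 10.1 FPKM in wild type. Gp6 was listed at 0 and Ppbp did not exceed 0.09 FPKM. Their part in the values of Ptgs1 and Tbxas1 was not tested.

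S100a6 (gene ID 20200, chromosome 3, 90612894 to 90614414, 3 exons) differed by about as much as Prtn3 but at a higher level. It had 33.6 and 51.7 FPKM in the knockout libraries, against 14.1 and 17.3 FPKM in the wild-type ones. The groups lay far apart, with ratios of single library pairs between 1.95 and 3.68. The means were 42.7 ± 12.8 and 15.7 ± 2.26 FPKM in knockout and wild type (SD, n = 2 each), a ratio of 2.72 and a log2 difference of 1.37 (SE 0.23). At about 479 and 711 fragments in knockout, counting error was small beside the spread between those libraries. In wild type, at about 199 and 252 fragments, it was a larger part of a smaller spread.

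S100a6 lies in a cluster of S100 genes, and its neighbours differed in level. S100a5, 1101 bases away, was listed at 0 in all libraries. S100a4, 6836 bases away and named for that position, stood at 18.5 and 6.34 FPKM in knockout and 6.25 and 5.40 FPKM in wild type, so that 1 knockout library held nearly all of its difference. Of the 7 S100 and S100-binding genes tested besides S100a6, 5 stood higher and 0 lower in each knockout library than in either wild-type library, their median log2 difference was 0.24, and 0 passed limma (2 at an unadjusted p under 0.05). The shares over all genes were 29.9% higher, 10.8% lower and 11.4% at an unadjusted p under 0.05 in limma. With median-centred values 4 were higher and 1 lower, against 19.9% and 20.1% of all genes. S100a10, the annexin A2 partner, was the most abundant at 277 and 270.2 FPKM in knockout and 234 and 280.4 FPKM in wild type. S100a11 stood at 123 and 145 FPKM in knockout and 84.4 and 108 FPKM in wild type, and S100a13 at 41.2 and 38.8 FPKM in knockout and 32.8 and 34.6 FPKM in wild type.

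The ITAM adaptors showed no separation between genotypes. Fcer1g (gene ID 14127, chromosome 1, 171229572 to 171234349, minus strand, 5 exons) had 10.9 and 13.2 FPKM in the knockout libraries, against 11.7 and 13.8 FPKM in the wild-type ones. The groups overlapped, the means were 12.0 ± 1.58 and 12.8 ± 1.52 FPKM in knockout and wild type (SD, n = 2 each), and the log2 difference was −0.08 (SE 0.16). Its sign changed between alternative settings, with values from −0.20 to 0.05. Single pairs of libraries gave ratios between 0.79 and 1.13. With 2 libraries per genotype, that range does not bound the difference that could have been missed.

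Tyrobp (gene ID 22177, chromosome 7, 30413782 to 30417582, 5 exons) was at 0.18 and 0.65 FPKM in the knockout libraries, against 0.09 and 0.43 FPKM in the wild-type ones. Library 2 was the higher in each genotype, and the groups overlapped. The values are worth about 2, 7, 1 and 5 fragments, too few for a comparison. Hcst, which encodes the related adaptor DAP10, lies 126 bases from Tyrobp on the opposite strand and was also low, at 0.24 and 0.46 FPKM in knockout and 0.67 and 0.04 FPKM in wild type. The gamma chain adaptor was thus expressed while its DAP12 counterpart was close to the limit of detection.

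Listed receptors that pair with these adaptors were at low levels, although Fcer1g itself was expressed. Fcgr1 and Fcgr3, activating receptors for IgG, did not exceed 0.58 and 0.55 FPKM in any library, and Trem1 did not exceed 0.26 FPKM. The downstream signalling genes were expressed. Of 9 genes tested on this list besides the adaptors, 7 stood higher and 0 lower in each knockout library than in either wild-type library, with a median log2 difference of 0.26, and 0 passed limma (2 at an unadjusted p under 0.05). Over all genes 29.9% were higher, and with median-centred values it was 3 of the 9 against 19.9% of all genes. At an unadjusted p under 0.05 in limma the share of all genes was 11.4%. The kinase gene Btk averaged 75.6 ± 2.37 FPKM in knockout and 62.4 ± 3.33 FPKM in wild type (SD, n = 2 each), and the adaptor gene Grb2 averaged 44.8 ± 1.39 FPKM in knockout and 42.8 ± 1.49 FPKM in wild type, with overlapping groups. Vav1, an exchange factor gene, stood at 29.8 and 38.9 FPKM in knockout and 19.7 and 27.9 FPKM in wild type. Plcg2, a phospholipase gene singled out after its values were seen, stood at 14.6 FPKM in both knockout libraries and at 8.80 and 8.65 FPKM in wild type (limma adjusted p = 0.166).

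Mcpt1 (gene ID 17224, chromosome 14, 56017964 to 56020391, 5 exons) was the one gene of the 10 that was lower in both knockout libraries. It had 0.78 and 0.36 FPKM in the knockout libraries, against 4.56 and 6.28 FPKM in the wild-type ones. The groups lay far apart. Knockout cells averaged 0.57 ± 0.297 FPKM and wild-type cells 5.42 ± 1.22 FPKM (SD, n = 2 each), so that 10.5% of the level remained. The log2 difference was −2.03 (SE 0.22) with a pseudocount of 1 and −3.10 with a pseudocount of 0.1, since the pseudocount compresses differences at low levels. The values are worth about 16 and 7 fragments in knockout and 91 and 129 in wild type.

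The sequence before the start of Mcpt1 is shown because this gene had the largest difference of the 10. It is chr14:56017714-56017963 of GRCm38.p6, plus strand, from the RefSeq promoter table, with the TGTGGT letters in capitals.
Mcpt1: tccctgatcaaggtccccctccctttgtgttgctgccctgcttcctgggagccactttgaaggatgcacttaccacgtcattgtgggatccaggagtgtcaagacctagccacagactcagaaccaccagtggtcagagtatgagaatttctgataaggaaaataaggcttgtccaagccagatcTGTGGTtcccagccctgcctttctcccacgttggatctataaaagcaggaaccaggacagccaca

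Mcpt1 lies in a cluster of mast cell protease genes, and the values of its measurable relative Mcpt2 did not follow it. Mcpt2, the other mucosal mast cell chymase gene, stood at 14.9 and 10.7 FPKM in knockout and 12.2 and 14.3 FPKM in wild type, with overlapping groups and a log2 difference of −0.06 (SE 0.19). Mcpt4, Mcpt9 and Cma1 did not exceed 0.25, 0.10 and 0.18 FPKM, too low for a comparison. No stretch of 50 bases in the Mcpt1 transcript occurs in an annotated transcript of another gene, and this held for each of the 10 genes. Reads of at least that length that match exactly would thus not be shared with the relatives.

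Other mast cell and basophil genes were split between expressed and unexpressed. Of 23 listed besides Mcpt1, 16 could be analysed and 11 were below 1 FPKM in every library. The stem cell factor receptor gene Kit and the mast cell carboxypeptidase gene Cpa3, both defining genes of the lineage, were listed at 0 in all 4 libraries. Of the 5 genes tested, 4 stood higher and 0 lower in each knockout library than in either wild-type library, also with median-centred values, and 0 passed limma (3 at an unadjusted p under 0.05). Of all genes tested, 29.9% were higher, and 19.9% with median-centred values, while 11.4% had an unadjusted p under 0.05 in limma. Srgn, the proteoglycan core of granules, averaged 50.8 ± 1.47 FPKM in knockout and 37.8 ± 1.22 FPKM in wild type (SD, n = 2 each). Slc18a2, a vesicular monoamine transporter gene, stood at 4.03 and 5.24 FPKM in knockout and 2.60 and 2.01 FPKM in wild type. Gata2, a factor of progenitors and mast cells that was singled out after its values were seen, stood at 4.11 and 4.52 FPKM in knockout and 2.49 and 2.53 FPKM in wild type (limma adjusted p = 0.254).

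Monocyte and macrophage genes were also mostly unexpressed. Of 29 listed, 22 could be analysed, 14 were below 1 FPKM in every library, and Csf1r, the receptor gene that defines the lineage, did not exceed 0.90 FPKM. Itgam, Cd14 and Adgre1 were at or below 0.08 FPKM in every library. Of the 7 tested, 4 stood higher and 0 lower in each knockout library than in either wild-type library, their median log2 difference was 0.35, and 0 passed limma (3 at an unadjusted p under 0.05). With median-centred values the counts were again 4 and 0, and the share of all genes that were higher was 29.9% without and 19.9% with centring. The share of all genes at an unadjusted p under 0.05 in limma was 11.4%. Csf2rb, the shared beta chain of the IL-3, IL-5 and GM-CSF receptors, was very abundant in this line, at 1275 and 1456 FPKM in knockout and 1292 and 1356 FPKM in wild type. Cyba, which encodes a subunit of the phagocyte oxidase, had 80.1 and 81.1 FPKM in knockout and 47.7 and 62.2 FPKM in wild type, with groups that lay apart. The eosinophil granule gene Prg2 ranged from 0.49 to 1.95 FPKM over the 4 libraries with overlapping groups.

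**Figure D3:**
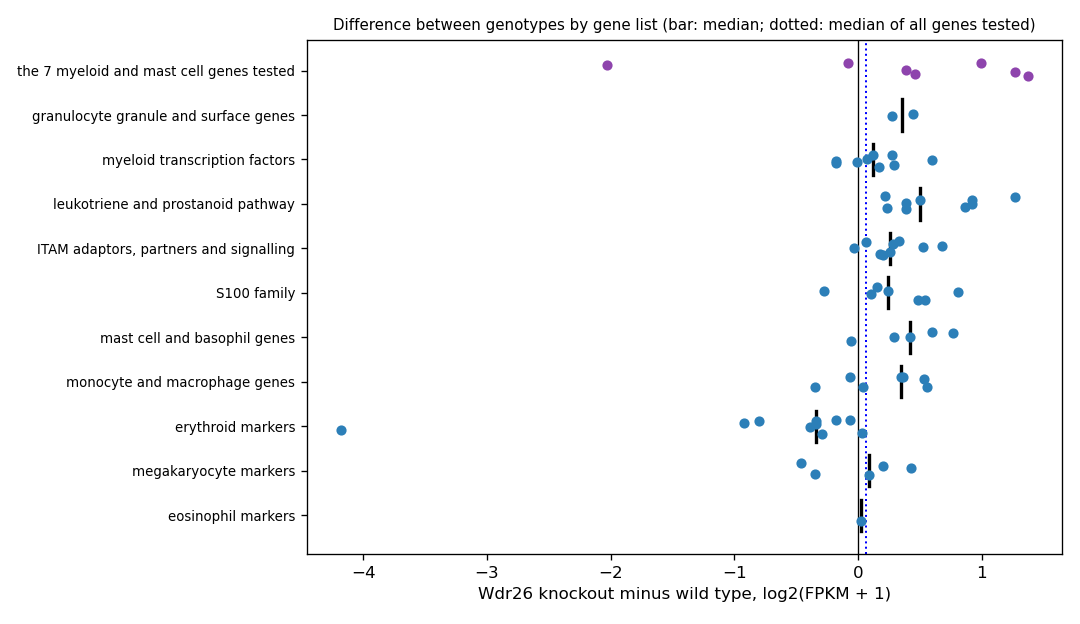
Log2 difference (knockout minus wild type, log2 of FPKM + 1) of each gene tested, by list, with the 7 myeloid and mast cell genes in purple at the top and the genes of each other list, without those 7, in blue. Black bars are list medians and the dotted line is the median over all 10670 genes tested, 0.067. The leukotriene and prostanoid list sits wholly to the right of that line, and most erythroid markers sit to the left of 0.

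The erythroid markers stood lower in the same libraries. Of the 10, none was higher and 6 were lower in both knockout libraries, also with median-centred values, where 10.8% of all genes tested were lower (20.1% median-centred). They had a median log2 difference of −0.34, and 0 passed limma (2 at an unadjusted p under 0.05, where 11.4% of all genes were). The log2 differences of the markers ran from −4.18 for Slc4a1 to 0.03 for Gata1, both singled out after their values were seen. Slc4a1 stood at 48.6 and 6.70 FPKM in knockout and 436 and 284.8 FPKM in wild type. The summed level of the 10 markers, set mainly by Hba-a1, overlapped between genotypes. The part of this difference in the values of the myeloid genes was not tested.

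Library number went with the levels of these genes within each genotype. All 7 tested genes were higher in wild-type library 2 than in wild-type library 1, and all but Mcpt1 were higher in knockout library 2 than in knockout library 1. Among all genes tested, 44.7% were higher in library 2 of the knockout and 32.6% in library 2 of the wild type, and 24% were higher in both. For Prtn3 the difference between the knockout libraries was 0.75 on the log2 scale, and between the wild-type libraries 0.24. For S100a6 these differences were 0.60 and 0.28, for Alox5ap 0.41 and 0.21, and for Cebpa 0.27 and 0.52. In each case but that of Cebpa the difference between genotypes exceeded the larger of these. For Alox5 it was 0.39 against 0.05 in the knockout pair and 0.29 in the wild-type pair. A block for library number was fitted only as an alternative, and its result is given with the other processing settings at the end. The labels do not say that the numbers pair the libraries, so the part of library number in these values stays unsettled.

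**Figure D4:**
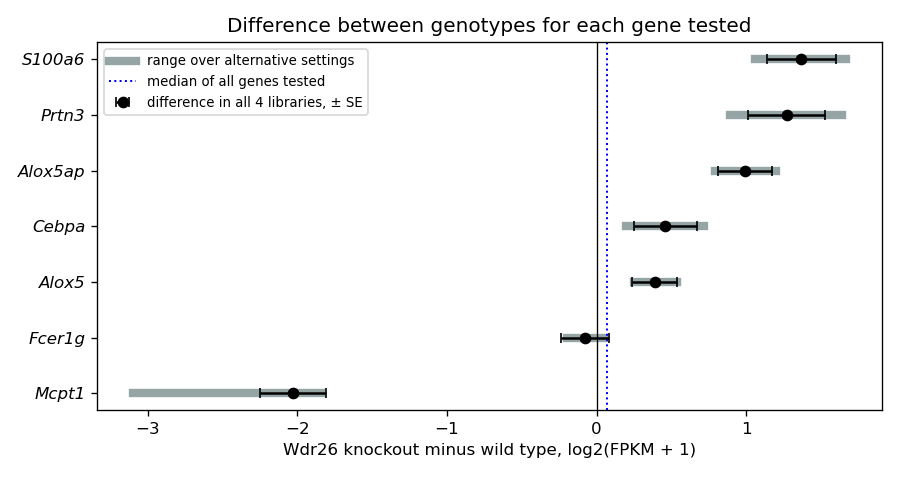
Log2 difference (knockout minus wild type, log2 of FPKM + 1) of each of the 7 genes tested. Black points are the values from all 4 libraries with the limma standard error, grey bars the range over the alternative settings that gave a value, the solid line 0 and the dotted line the median of all genes tested. S100a6, Prtn3, Alox5ap, Cebpa and Alox5 stay to the right of 0 and Mcpt1 to the left under each alternative shown, and Fcer1g crosses 0.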

How the data were processed

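The authors deposited 1 table of values taken as FPKM, a unit that they had thus scaled to transcript length and library total before deposit, although no unit stands in its header. The unit was inferred, since values times transcript length summed to 1.02e+09 to 1.04e+09 in each library while plain totals differed. TopHat2 and mm10 are named in the submitters' processing notes. Per the file headers and identifiers, the table covers RefSeq transcripts and transcripts assembled from the reads (1041 genes). Which program computed the values is not known from the labels.

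The 10670 genes that reached 1 FPKM in 2 or more libraries were compared on the scale log2(FPKM + 1) between knockout and wild type, using limma 3.58.1 in R 4.3.3 (mean-variance trend, no covariates, Benjamini-Hochberg adjustment over all genes tested, threshold 0.05). The log2 scale with a pseudocount understates differences of low genes. An exact permutation test was not run, as its smallest p for 2 libraries per genotype is 0.333. Fragments were estimated from the smallest steps in low values of short genes with 1 transcript, assuming a loss of 40 bases of effective length. The procedure was tested on simulated data with known changes. The simulated noise had 1 size for all genes and was independent between libraries, unlike the real deviations. That test therefore does not give the error rate on these data.

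The 10 genes and the other lists were chosen with earlier results of these data known. The text names the 10 genes, Wdr26, for each list up to 4 called genes and otherwise its 3 most abundant ones, neighbours of the 10 genes, while defining markers at low levels and the genes said to be singled out were named after their values were seen. Some genes that the rule names are left out of the text. Alternatives were median centring, quantile normalization, a pseudocount of 0.1, no filter, a mean of at least 5 FPKM, no trend, a block for library number and leaving out each library.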

Additional observations from a re-analysis of the deposited data

How the results depend on the processing

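Among the 10670 genes tested 10 passed in all 4 libraries, of which 0 were among the 10 genes described and 0 on the other lists. Without a filter on low values the count over all genes was 0 (1957 at an unadjusted p under 0.05, limma), and it was 2 where a mean of 5 FPKM was required. With a replicate block for library number, which leaves 1 residual degree of freedom, 1863 of the 10670 genes tested passed. They included 6 of the 7 described genes tested and 28 genes of the other lists. Nothing is read from these counts, since the genes and lists were chosen with earlier results of these data known. The labels do not say that the library numbers mark a shared culture or day. Deviations from the genotype means correlated at 0.61 across genes between libraries of the same number, and 2 pairs do not establish a pairing. With single libraries left out, between 0 and 720 genes passed, between 0 and 4 of the described genes, and between 0 and 12 on the other lists. Leaving out knockout library 1 gave 720 and knockout library 2 gave 314 over all genes, and the counts of 0 came from leaving out either wild-type library, where 574 genes had an unadjusted p under 0.05 in limma. The cause was not tested, and nothing is read from the counts among the described genes and the other lists. Median centring, quantile normalization, a pseudocount of 0.1 and a fit without trend kept 0 calls among the described genes and between 7 and 11 over all genes. Alox5, Alox5ap, Cebpa, Prtn3 and S100a6 kept a positive log2 difference under all 11 alternatives, and Mcpt1 a negative one under the 8 that tested it. Fcer1g kept its sign in 9 of 11. Depth limits Mpo, Elane and Tyrobp, and 2 libraries per genotype limit every comparison.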
